A study of Mus musculus with 4 samples.

Results

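Genes for the initiation and elongation factors of cytosolic translation were compared between *Meis2* mutant and wild-type cochleas. Members were taken by gene symbol, as the probe sets with a single symbol of the Eif or Eef type, and 51 of 19938 genes met this rule with 59 of 35556 probe sets. Kinases (*Eef2k* among them), the eIF4E-binding proteins and the sex-linked pair *Eif2s3x* and *Eif2s3y* were left out, which removed 10 of the 61 genes that the name pattern found. Of the members, 46 are named as translation factors and 5 are lysine methyltransferases that act on elongation factors and share their names. Initiation and elongation factors were also counted by name. These counts thus include *Eif4a3*, of the exon junction complex, and *Eef1e1*, of the multisynthetase complex. Several known subunits, such as *Eif2s1* and *Eif4g1*, were not analysed here.

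RNA of whole cochleas from E15 mouse embryos was hybridized to 4 Affymetrix Mouse Gene ST arrays. The 2 mutant arrays (replicates 1 and 2) came from *Meis2* flox/flox; *Pax2* Cre/+ embryos, in which Cre under the control of *Pax2* acts in the otic placode and vesicle, so that tissue of other origin in a whole cochlea keeps the floxed alleles. The 2 wild-type arrays (replicates 2 and 3) came from embryos labelled wild type, for which no floxed or Cre allele is given. Neither the labels nor the methods for the arrays say whether each held 1 embryo or a pool. All values are log2 signals that the authors computed, and a difference is mutant minus wild type.

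Translation of a mature mRNA starts when the eIF4F complex, made of the cap-binding protein eIF4E, the scaffold eIF4G and the helicase eIF4A, recruits a small ribosomal subunit that carries eIF3 and the initiator tRNA bound to eIF2. The subunit scans to a start codon under the control of eIF1, eIF1A and eIF5, and eIF5B then joins the large subunit. During elongation eEF1A brings each aminoacyl-tRNA to the ribosome, the eEF1B subunits recharge eEF1A with GTP, and eEF2 moves the ribosome along the mRNA.

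The array medians were 6.73 and 6.72 in mutants and 6.63 and 6.65 in wild type, and over all probe sets the median difference was 0.11. Pearson's r across probe sets (features, not replicates) was 0.996 for the mutant pair, 0.993 for the wild-type pair and 0.966 to 0.971 for pairs of different genotype. *Meis2* itself had 9.61 and 9.80 in mutants and 9.64 and 9.38 in wild type (adjusted p = 0.284 from limma). This signal was thus not lower in mutants, and the genotype here rests on the labels. Whether the probe set lies in the floxed exons, and how much *Meis2* RNA came from tissue that keeps the floxed alleles, was not tested. The arrays also differed in sex-linked transcripts, since *Xist* had 11.83 and 11.84 in mutants and 5.54 and 11.51 in wild type, and *Eif2s3y* had 4.68 and 4.88 in mutants and 8.76 and 7.77 in wild type. Wild-type replicate 3 thus had high signals of both genes, wild-type replicate 2 of *Eif2s3y* only and the mutant arrays of *Xist* only. Sex and genotype therefore cannot be fully told apart on these arrays. Whether wild-type replicate 3 held RNA of embryos of both sexes was not tested. Markers of the dissected tissue did not move as 1 group. In the cochlear duct list of 6 genes, *Sox2* (difference of -1.94) and *Epyc* (-0.68) were lower in mutants, *Pax2* (0.97) and *Otoa* (0.54) were higher, and *Oc90* (12.73 and 12.73 in mutants, 12.88 and 12.83 in wild type) and *Tecta* did not pass. Without mutant replicate 2, wild-type replicate 2 or wild-type replicate 3, and after median scaling, 1 of these genes was higher. Of 3 mesenchyme genes, *Coch* was lower (-1.09), a call that was lost without mutant replicate 1, while *Tbx18* and *Pou3f4* (12.13 and 12.17 in mutants, 12.03 and 12.34 in wild type) did not pass. Skeletal muscle markers moved with genotype. Of 15 such genes, 11 were higher in mutants and 0 lower, and the sum of their log2 signals was 99.99 and 104.7 in mutants and 91.89 and 95.48 in wild type. This count was 5 without mutant replicate 1, 1 without mutant replicate 2, 1 without wild-type replicate 2 and 6 after median scaling. The defining regulators *Myod1* (6.71 and 7.04 in mutants, 6.07 and 6.30 in wild type) and *Myog* (6.08 and 6.21 in mutants, 5.77 and 5.86 in wild type) lay near or below the array medians apart from *Myod1* on mutant replicate 2. The erythroid list held 3 genes that were higher in mutants, 1 that was lower and 2 that did not pass. The ganglion neuron markers *Nefl* and *Neurod1* were lower in mutants (differences of -1.63 and -1.36), and *Tubb3* had a difference of 0.04. The part of duct, mesenchyme, muscle, neurons or sex in the results below was not tested.

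Among the members, 19 of 51 (37.3%) were lower in mutants and 4 (7.84%) were higher at an adjusted p of 0.05 from limma, while 28 did not pass. Over all genes with a single symbol, 16.2% were lower and 24.2% were higher (40.4% in either direction), so that the members were called lower more often, and higher less often, than the array as a whole. The members' signals are brighter than most, and among the 6524 genes with a mean signal of at least 8.46, the lower quartile of the members (a limit chosen after the data were seen), 26.6% were lower and 27.9% were higher (54.6% in either direction). The median difference was -0.16 over the members and 0.13 over all genes. This tilt was not particular to the members. Genes for cytosolic ribosomal proteins were lower in 37 of 61 cases (60.7%) and higher in 2, with a median difference of -0.48. Of the members, 34 had a difference below 0. In whole tissue, fewer cells of a type and less RNA per cell cannot be told apart.

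**Figure D1:**
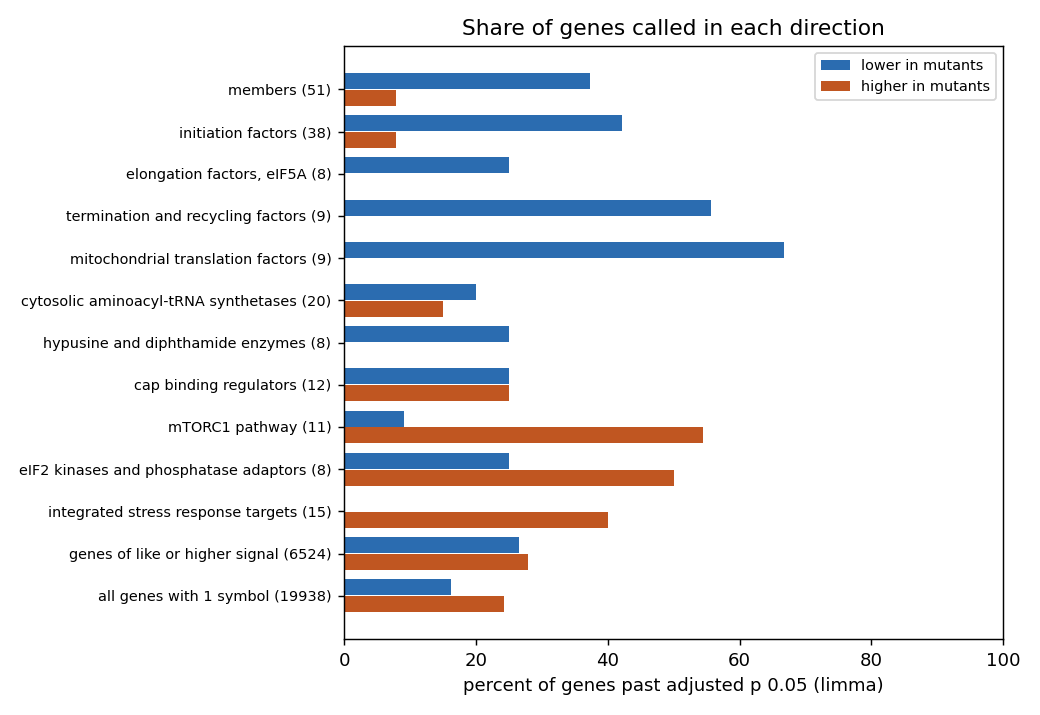
Percent of genes lower (blue) or higher (orange) in *Meis2* mutant against wild-type cochleas at an adjusted p of 0.05 from limma, for the members, the lists of their partners and 2 backgrounds, with the number of genes in brackets. Of the 51 members, 37.3% were lower, against 26.6% of genes of like or higher signal and 16.2% of all genes.

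Groups did not overlap for 39 members (76.5%), with 28 lower and 11 higher in mutants. This share is close to the 80.4% of all genes, although the direction was not, since 26.6% of all genes were lower without overlap and 53.8% were higher. A difference of at least 2-fold past the threshold was found for 4 members, all lower in mutants, while 3.83% of all genes were lower and 1.13% higher by this criterion. These were *Eif4a2*, *Eif1ax*, *Eif2s2* and *Eif4a3* at their brightest probe sets. With the probe set numbered on the gene's own chromosome, *Eif2s2* was 1.59-fold lower and left this group, and *Eif3m* was 2.32-fold lower and entered it. When an array was left out, fewer members were called in either direction, and fewer probe sets over the whole array. The median difference of the members then lay between -0.25 and -0.15. Of the 19 lower members, 7 (*Eef1b2*, *Eif1ax*, *Eif2s2*, *Eif3a*, *Eif3e*, *Eif4a2* and *Eif5b*) kept the call under every alternative run, and of the 4 higher members only *Eef2kmt* did.

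**Figure D2:**
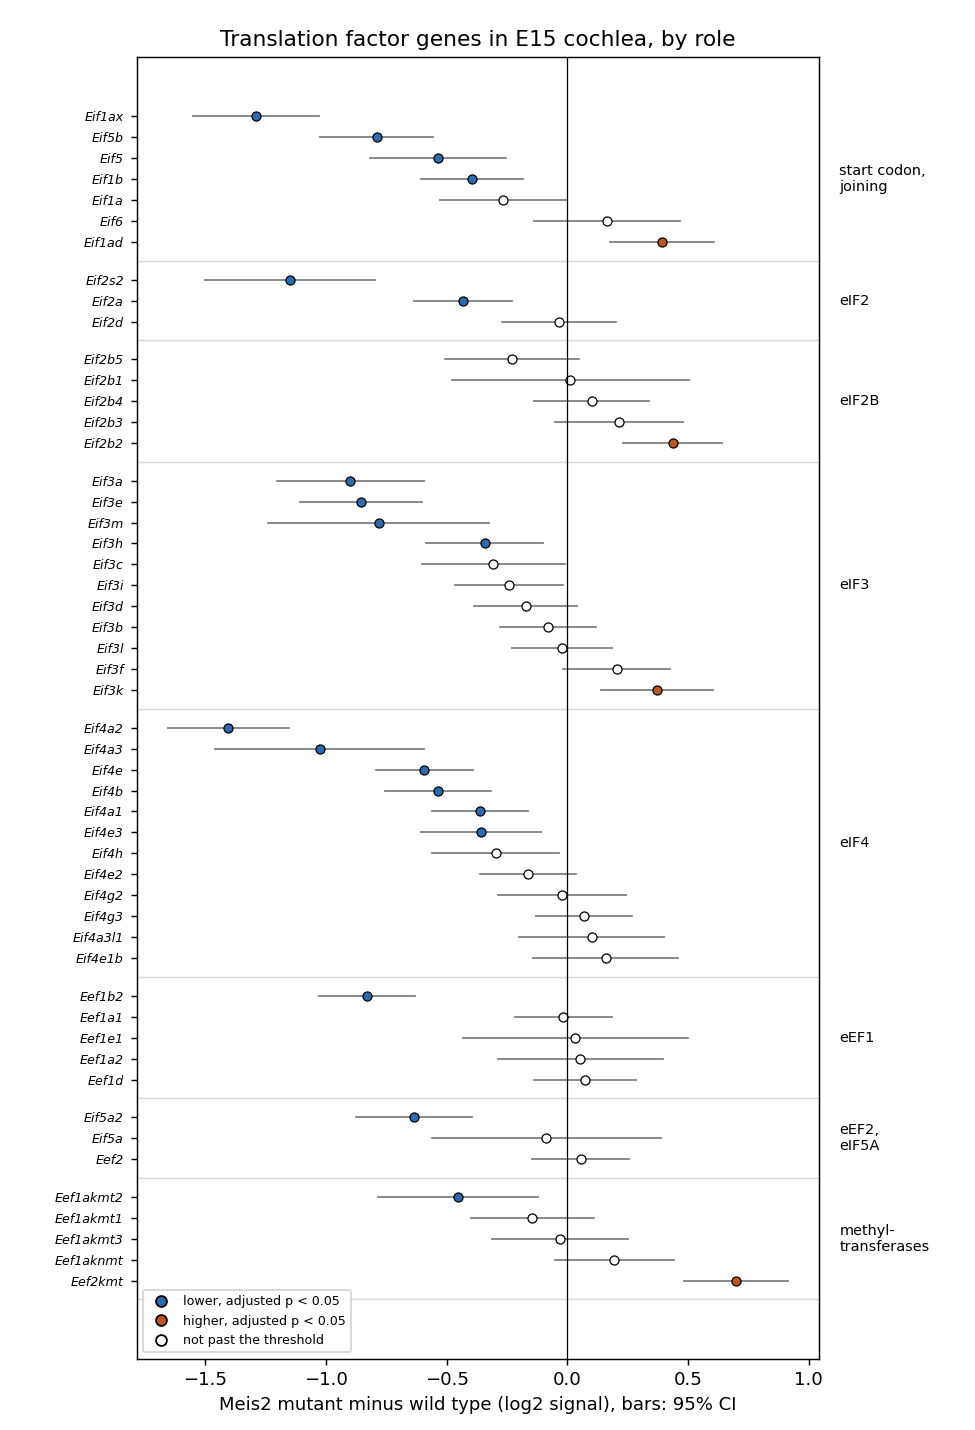
Difference in log2 signal, *Meis2* mutant minus wild-type cochleas, for each of the 51 genes, grouped by role, with 95% confidence intervals from limma. Genes named as initiation factors make up 38 of the 51. Lower members (blue) were 16 of these 38, 2 of the 8 elongation factor genes (with eIF5A) and 1 of the 5 methyltransferases. The eEF1A, eEF1D and eEF2 genes sit near 0.

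Factors of start codon selection and subunit joining were lower in 4 of 7 cases, with a median difference of -0.40. *Eif1ax*, the X-linked gene for eIF1A, which helps the small subunit scan, had 9.27 and 9.14 in mutants and 10.41 and 10.58 in wild type. Both mutant arrays lay below both wild-type arrays by over 1 on the log2 scale. The difference was -1.29 ± 0.10 (SE), or 2.44-fold lower (adjusted p = 0.00313 from limma). Beside the unequal sex-linked signals, *Eif2s3x*, another X-linked gene of this pathway, had 11.51 and 11.48 in mutants and 11.09 and 11.38 in wild type (adjusted p = 0.149 from limma). The autosomal relative *Eif1a* had a difference of -0.27 (adjusted p = 0.0984 from limma). Whether these close relatives share probes was not tested.

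*Eif5b*, the GTPase that joins the subunits, fell by 0.79 (adjusted p = 0.00532 from limma). *Eif5*, the GTPase activator of eIF2, fell by 0.54 and *Eif1b*, a relative of eIF1, by 0.40. The only member of this role that was higher was *Eif1ad*, named for its eIF1A domain, with 9.03 and 9.14 in mutants and 8.69 and 8.70 in wild type, and a difference of 0.39 (adjusted p = 0.0231 from limma). *Eif6*, which keeps the large subunit from joining too early, had a difference of 0.16 and overlapping groups. The call for *Eif1ad* was lost when any 1 of the 4 arrays was left out (adjusted p from 0.061 to 0.13). That for *Eif1b* ended without mutant replicate 1, mutant replicate 2 or wild-type replicate 3 (0.0985, 0.109 and 0.0643), and that for *Eif5* without mutant replicate 1, mutant replicate 2 or wild-type replicate 2 (0.0523, 0.103 and 0.059).

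Among the carriers of the initiator tRNA, *Eif2s2*, the beta subunit of eIF2, had 8.91 and 8.59 in mutants and 9.97 and 9.83 in wild type. The genotypes were farther apart than arrays of 1 genotype, with a difference of -1.15 ± 0.14 (SE), or 2.22-fold lower (adjusted p = 0.00571 from limma). This brightest probe set is numbered among genes of another chromosome, and the *Eif2s2* probe set numbered on its own chromosome had 8.73 and 8.58 in mutants and 9.33 and 9.32 in wild type, a difference of -0.67, or 1.59-fold lower (adjusted p = 0.00733 from limma). *Eif2a*, an alternative carrier that is not part of eIF2, fell by 0.43 (adjusted p = 0.015 from limma, but 0.0764 without mutant replicate 1 and 0.0916 without mutant replicate 2). *Eif2d* had a difference of -0.04 and overlapping groups.

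The 5 subunits of eIF2B, the factor that reloads eIF2 with GTP, had a median difference of 0.10. None was lower at the threshold. *Eif2b2*, the beta subunit, had 9.32 and 9.36 in mutants and 8.87 and 8.93 in wild type. Its difference of 0.44 ± 0.08 (SE) had an adjusted p of 0.0153 from limma, but 0.0747 without mutant replicate 1 and 0.0937 without mutant replicate 2. In the other direction, *Eif2b5*, the catalytic subunit, had 8.84 and 8.98 in mutants and 9.04 and 9.23 in wild type (adjusted p = 0.151 from limma).

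In the eIF3 complex, which holds the initiation factors on the small subunit, 4 of 11 genes were lower, 1 was higher and the median difference was -0.24. *Eif3a*, the largest scaffold subunit, had 9.00 and 9.27 in mutants and 9.98 and 10.09 in wild type, a difference of -0.90 ± 0.12 (adjusted p = 0.00711 from limma). *Eif3e*, a subunit of the same octamer core, had 10.35 and 10.20 in mutants and 11.07 and 11.19 in wild type, a difference of -0.85 ± 0.10 (adjusted p = 0.00527 from limma). For both genes the gap between genotypes was wider than the spread within either of them. *Eif3m* and *Eif3h* fell by 0.78 and 0.34, with a fall of 1.21 for *Eif3m* at the probe set of its own chromosome. The remaining subunit past the threshold was *Eif3k*, also of that core, with 11.18 and 11.09 in mutants and 10.71 and 10.82 in wild type, a difference of 0.37 (adjusted p = 0.0315 from limma). Subunits of 1 complex thus differed in direction on these arrays. *Eif3b*, a subunit with an RNA-binding domain, and *Eif3l* lay close to 0 (-0.08 and -0.02), and *Eif3l* overlapped between genotypes. The call for *Eif3k* ended without mutant replicate 1 (adjusted p = 0.15), mutant replicate 2 (0.104) or wild-type replicate 2 (0.0914) and after median scaling (0.0602). *Eif3h* lost its call without mutant replicate 1, mutant replicate 2 or wild-type replicate 3 (0.147, 0.173 and 0.119) and after repeated quantile normalization, where its difference was -0.18 (0.191), and *Eif3m* without mutant replicate 2 (0.08) or wild-type replicate 2 (0.0797).

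**Figure D3:**
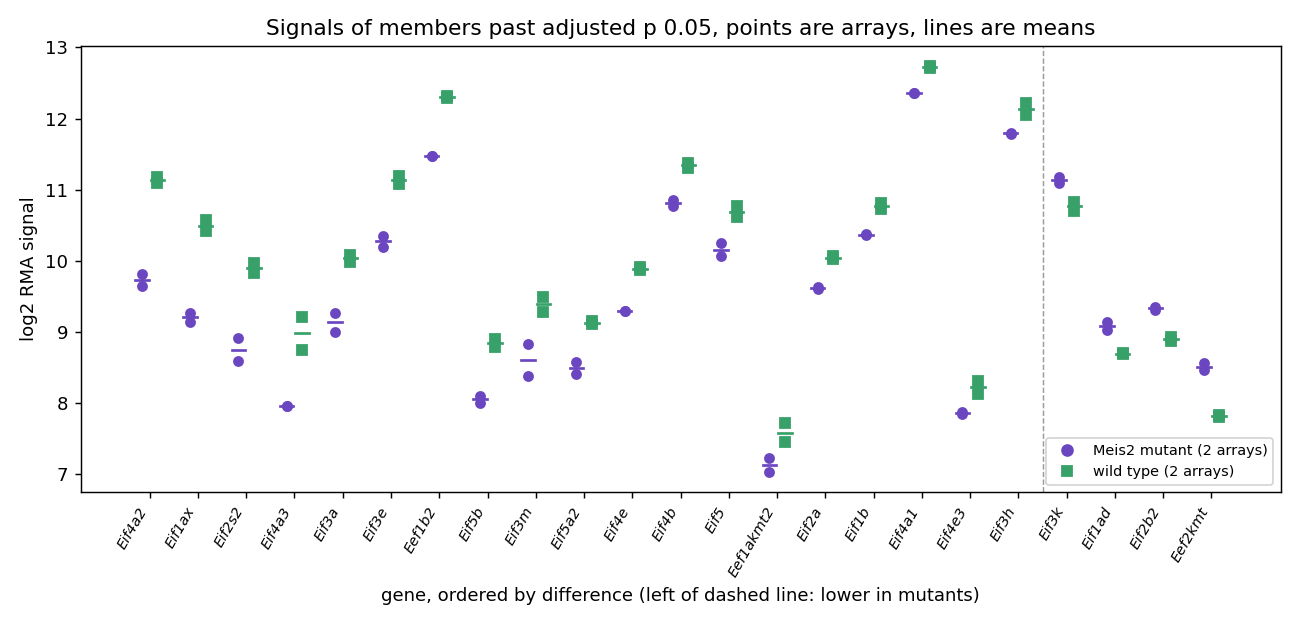
Log2 signal of the 23 members past an adjusted p of 0.05, with the 2 *Meis2* mutant arrays (circles) left of the 2 wild-type arrays (squares) and lines at the means. Genes left of the dashed line were lower in mutants, with *Eif4a2* at 9.81 and 9.64 in mutants and 11.09 and 11.17 in wild type, and the 4 genes right of it were higher.

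The eIF4 family held the member with the most negative difference. Of its 12 genes, 6 were lower and 0 higher, with a median of -0.33. *Eif4a2*, a helicase that unwinds the leader of mRNAs, had 9.81 and 9.64 in mutants and 11.09 and 11.17 in wild type. The 4 arrays fell into their genotypes with a gap of over 1 between them, and the difference was -1.41 ± 0.10 (SE), or 2.65-fold lower (adjusted p = 0.00278 from limma). Its close relative *Eif4a1* fell by 0.36. This call was lost when any 1 of the 4 arrays was left out, although the difference stayed between -0.38 and -0.35. Whether the relatives share probes was not tested.

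*Eif4a3*, the helicase at the centre of the exon junction complex rather than of cap-dependent initiation, had 7.96 and 7.95 in mutants and 8.75 and 9.22 in wild type. The wild-type arrays were wider apart than the mutant arrays but did not overlap with them, and the difference was -1.03 ± 0.17 (adjusted p = 0.0116 from limma, but 0.0559 without mutant replicate 1 and 0.0613 without mutant replicate 2). *Eif4b*, a cofactor of the eIF4A helicases, fell by 0.54 (adjusted p = 0.0107 from limma, 0.0662 without mutant replicate 1 and 0.0553 without mutant replicate 2). *Eif4e3*, a cap-binding relative of eIF4E, fell by 0.36, a call that ended without mutant replicate 1, mutant replicate 2 or wild-type replicate 3 (adjusted p of 0.142, 0.167 and 0.111), after repeated quantile normalization (0.0501) and with a trended prior (0.0507). The scaffold genes were near 0, with differences of 0.07 for *Eif4g3* and -0.02 for *Eif4g2*, whose product supports initiation without the cap-binding protein.

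*Eif4e*, the cap-binding protein, was read by 3 probe sets that did not move together. The brightest had 9.30 and 9.29 in mutants and 9.87 and 9.91 in wild type, a difference of -0.59 (adjusted p = 0.00705 from limma, and 0.0523 without mutant replicate 2). A dimmer one had 8.06 and 7.74 in mutants and 8.73 and 8.65 in wild type, a difference of -0.79 (adjusted p = 0.0121). The dimmest had 6.94 and 6.93 in mutants and 6.51 and 6.45 in wild type, a difference of 0.45 in the other direction (adjusted p = 0.0136). So the direction for *Eif4e* depended on the probe set. The probe set that was higher had a mean of 6.71, within the range of the array medians (6.63 to 6.73).

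Probe set numbers on this array follow the order of genes along the chromosomes, and the brightest probe sets of *Eif2s2*, *Eif3m*, *Eif4a1*, *Eif4e*, *Eif4e1b* and *Eif5a* have numbers among genes of another chromosome. Whether these read the gene itself or a copy elsewhere in the genome was not tested. With the probe set numbered on the gene's own chromosome, a choice made after the data were seen, *Eif2s2* fell by 0.67, *Eif3m* by 1.21, *Eif4a1* by 0.38 and *Eif4e* by 0.79, each past the threshold (limma). *Eif5a* changed direction, with a difference of 0.44 that passed (adjusted p = 0.0203 from limma) in place of -0.09, which raised the members higher in mutants to 5. *Eif4e1b* had a difference of 0.34 and did not pass (adjusted p = 0.119 from limma).

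**Figure D4:**
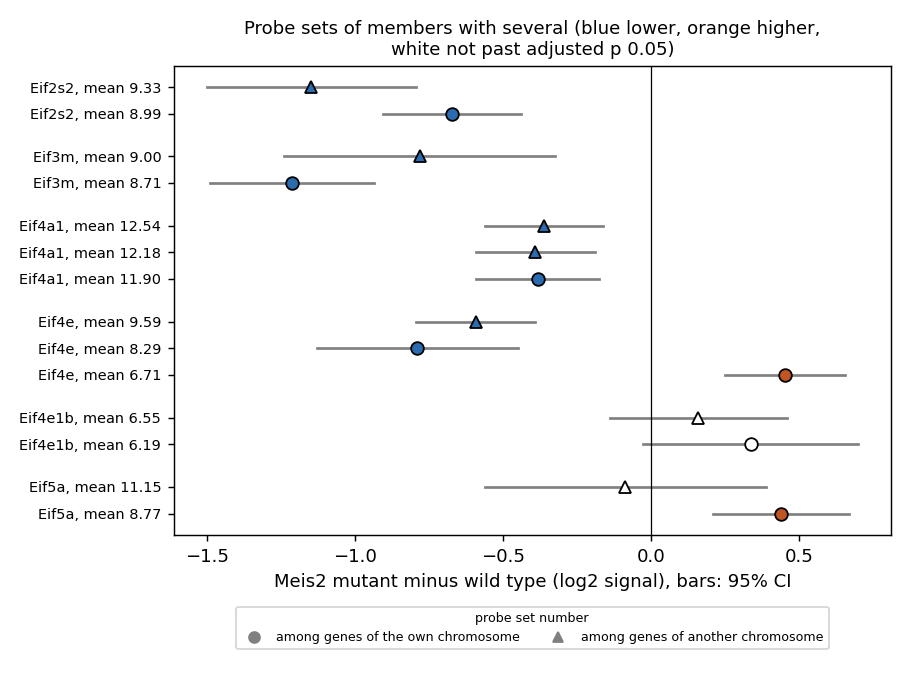
Difference between *Meis2* mutant and wild-type cochleas for each probe set of the 6 members with several, with 95% confidence intervals from limma, where the mean is the log2 signal over all 4 arrays. Circles are probe sets numbered among genes of the gene's own chromosome and triangles those numbered among another's, and *Eif4e* had 1 probe set higher (0.45) beside 2 lower (-0.59 and -0.79).

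Of the 8 elongation factor genes, with eIF5A counted among them, 2 were lower and 0 higher, and the median difference was 0.01. *Eef1b2*, the exchange factor of eEF1A, had 11.48 and 11.47 in mutants and 12.32 and 12.29 in wild type. Arrays of 1 genotype were nearly equal, and the difference was -0.83 ± 0.08 (SE), or 1.78-fold lower (adjusted p = 0.00383 from limma). Its substrate *Eef1a1*, which brings aminoacyl-tRNA to the ribosome, had 13.70 and 13.71 in mutants and 13.70 and 13.75 in wild type. The groups overlapped, and the 95% confidence interval of the difference was -0.22 to 0.18. *Eef1a2*, the form of muscle and neurons, had a difference of 0.05, and *Eef1d*, another exchange subunit, of 0.07. *Eef1e1*, which sits in the multisynthetase complex, had 10.02 and 9.51 in mutants and 9.71 and 9.75 in wild type.

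*Eef2*, the translocase, had 13.03 and 13.04 in mutants and 12.96 and 13.00 in wild type, and its difference of 0.05 had an interval of -0.15 to 0.25 (after median scaling the difference was -0.03). *Eif5a2*, a form of the hypusine-bearing factor that helps ribosomes through slow stretches, had 8.58 and 8.42 in mutants and 9.16 and 9.11 in wild type. This gave a difference of -0.63 ± 0.09 (adjusted p = 0.009 from limma, and 0.0572 without mutant replicate 2). *Eif5a*, the common form, was read by 2 probe sets. The brighter had 11.10 and 11.12 in mutants and 10.94 and 11.46 in wild type, which overlap. The other had 9.04 and 8.93 in mutants and 8.50 and 8.60 in wild type, a difference of 0.44 (adjusted p = 0.0203 from limma).

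Among the methyltransferases, *Eef2kmt*, which modifies a lysine of eEF2, had 8.57 and 8.46 in mutants and 7.83 and 7.80 in wild type. It showed the largest positive difference of the 51 members, 0.70 ± 0.08 (SE), or 1.62-fold higher (adjusted p = 0.00581 from limma). *Eef1akmt2*, which modifies eEF1A, had 7.23 and 7.04 in mutants and 7.46 and 7.72 in wild type, a difference of -0.45 (adjusted p = 0.0476 from limma). That call ended without mutant replicate 1, mutant replicate 2 or wild-type replicate 3 (adjusted p of 0.0903, 0.199 and 0.127) and with a trended prior (0.0541). The other 3 enzymes lay between -0.14 and 0.20 and did not pass.

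Promoter sequences were read for 39 of the 51 members from RefSeq (GRCm38.p6), from 250 bases before to 50 after the annotated start. The authors' build is mm8, so no array position is compared with them. The windows below are shown for genes that were lower (*Eif4a2*, *Eef1b2* and *Eif5a2*) and for a gene near 0 (*Eef2*), and were picked after their motifs had been seen. Capitals mark TGACAG, the motif that Meis proteins bind directly, read on the other strand as CTGTCA in the first 2 windows, then CCGGAAGT, bound by ETS factors, and TATAAA. Each lies on the plus strand of the build, at chr16:23107228-23107307, chr1:63176641-63176720, chr3:28781197-28781276 and chr10:81176551-81176630.
Eif4a2: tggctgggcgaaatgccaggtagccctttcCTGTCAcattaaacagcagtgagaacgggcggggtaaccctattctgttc
Eef1b2: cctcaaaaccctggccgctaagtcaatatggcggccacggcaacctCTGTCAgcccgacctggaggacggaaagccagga
Eif5a2: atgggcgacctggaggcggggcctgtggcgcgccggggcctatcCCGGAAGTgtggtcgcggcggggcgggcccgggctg
Eef2: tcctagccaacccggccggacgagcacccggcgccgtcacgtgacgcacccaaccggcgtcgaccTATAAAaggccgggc

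A total of 6 patterns was searched, each on both strands except the last: the Meis and ETS motifs above, the TATAAA box, the octamer TGATNNAT known for joint binding of TALE and HOX factors, AAGATGGC, bound by YY1, and a pyrimidine start, which is a C at the start followed by C or T through 5 bases. TGACAG stood in 4 of 39 member promoters (10.3%), those of *Eif4a2*, *Eef1b2*, *Eif4h* and *Eif5a*, against 21.6% of the promoters of 27025 genes. It was present in 2 of the 16 lower members with a promoter and in 2 of the 19 that did not pass. CCGGAAGT stood in 8 members (20.5%) against 4.31% of all genes, with 2 of 16 lower members, 1 of 4 higher members and 5 of 19 that did not pass. AAGATGGC was found in 4 (10.3%) against 3.19%, TATAAA in 3 (7.69%) against 15.7%, the pyrimidine start in 1 (2.56%) against 3.01%, and TGATNNAT in 0 against 10.1%. GC content differs between these sets, with a median of 62.7% in members and 52.8% in all genes. A match is a description of these letters, not a site in use.

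Partners of the factors were taken from lists of their pathway. For comparison with the counts below, 16.2% of all genes were lower and 24.2% higher. Among genes of like or higher signal, 26.6% were lower and 27.9% higher. Among termination and recycling factors, 5 of 9 were lower and 0 higher, with a median of -0.41. *Denr*, which recycles the small subunit with its partner *Mcts1*, had 7.99 and 7.87 in mutants and 9.04 and 9.37 in wild type, a difference of -1.28 (adjusted p = 0.00471 from limma). *Mcts2*, a relative of that partner, fell by 1.08 and *Abce1*, the ATPase that splits ribosomes, by 0.70. When 1 array was left out, 4 or 5 genes of this list were lower.

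Mitochondrial translation, which runs on its own set of factors, was lower in 6 of 9 genes and higher in 0, with a median of -0.66. *Mtif2*, its initiation GTPase, had 7.09 and 6.75 in mutants and 8.04 and 8.32 in wild type, a difference of -1.26 (adjusted p = 0.00655 from limma). *Mtrf1l*, a release factor, fell by 0.89 and *Mtif3*, another initiation factor, by 0.78. The count of lower genes was 5 without mutant replicate 1, but 2 without mutant replicate 2, where *Mtif3* had an adjusted p of 0.0523 from limma.

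Cytosolic aminoacyl-tRNA synthetases, which load tRNAs with amino acids, had 4 lower and 3 higher genes of 20, and a median of -0.01. *Tars*, for threonine, fell by 0.88 and *Aimp1*, a scaffold of the multisynthetase complex, by 0.95, whereas *Vars*, for valine, had 10.33 and 10.22 in mutants and 9.47 and 9.28 in wild type, a difference of 0.90 (adjusted p = 0.00535 from limma). The genes of this list went in both directions. Without mutant replicate 2, 2 were lower and 1 was higher, and without mutant replicate 1 there were 3 lower and 1 higher. After median scaling 1 was higher, and after repeated quantile normalization 5 were. Enzymes that make the hypusine of eIF5A and the diphthamide of eEF2 were lower in 2 of 8 cases, *Dph6* (-0.73) and *Dph3* (-1.15), both of the diphthamide pathway. *Dph3* had an adjusted p of 0.0112 from limma, but 0.0591 without mutant replicate 2, which left 1 lower gene. *Dph2* had a difference of 0.38 and did not pass (adjusted p = 0.0573 from limma).

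**Figure D5:**
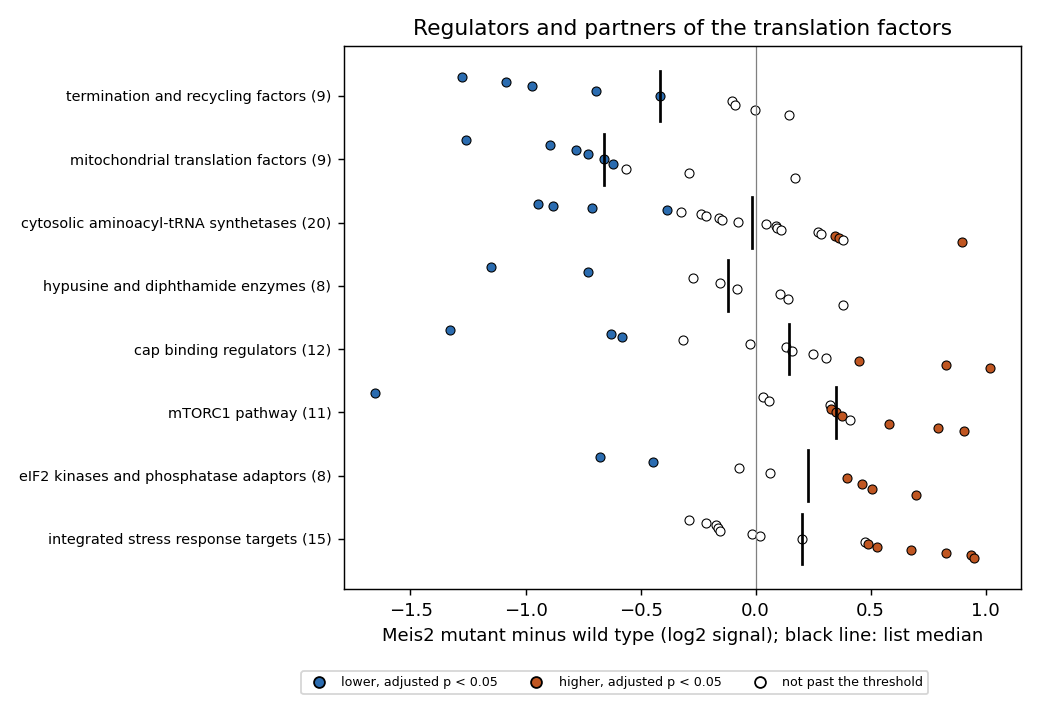
Difference in log2 signal, *Meis2* mutant minus wild-type cochleas, for each gene of the 8 pathway lists, with lower genes in blue, higher genes in orange and the list's median as a black line. Termination and mitochondrial factors lie mostly below 0 (medians of -0.41 and -0.66), and genes of the mTORC1 pathway mostly above it apart from *Rheb* at -1.65.

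Regulators of the cap-binding step were split, with 3 lower and 3 higher of 12 and a median of 0.14. *Paip1*, which links the poly(A)-binding protein to initiation factors, had 8.69 and 8.70 in mutants and 9.97 and 10.08 in wild type, a difference of -1.33 (adjusted p = 0.00272 from limma). *Eif4ebp2*, a repressor that holds eIF4E away from eIF4G, had 11.15 and 11.05 in mutants and 10.13 and 10.03 in wild type, a difference of 1.02 (adjusted p = 0.00349 from limma). Both genes were clear of overlap and kept their calls whichever array was left out. *Paip2b*, an inhibitor of the poly(A)-binding protein, fell by 0.58 (0.0615 without mutant replicate 2, as an adjusted p from limma). Without mutant replicate 1 the list had 2 lower and 1 higher, and without mutant replicate 2 it had 1 of each.

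In the mTORC1 pathway, which controls the eIF4E-binding proteins through phosphorylation, 6 of 11 genes were higher and 1 was lower, with a median of 0.35. The lower gene was *Rheb*, the GTPase that activates mTORC1, with 8.60 and 8.52 in mutants and 10.09 and 10.34 in wild type, a difference of -1.65 ± 0.11 (adjusted p = 0.00278 from limma). *Rptor*, a scaffold of mTORC1, and *Tsc2*, an inhibitor of *Rheb*, were higher by 0.79 and 0.90. The count of higher genes was 2 without mutant replicate 1, 2 without mutant replicate 2, 4 without wild-type replicate 2, 4 without wild-type replicate 3 and 3 after median scaling.

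The kinases of eIF2, with their cofactors and the phosphatase adaptors that reverse them, had 2 lower and 4 higher genes of 8 and a median of 0.23. *Eif2ak2*, the kinase activated by double-stranded RNA, fell by 0.68 (adjusted p = 0.011 from limma), while *Eif2ak4*, the kinase activated by amino acid shortage, and its activator *Gcn1* were higher by 0.50 and 0.70. Without mutant replicate 1 or mutant replicate 2 no gene of this list was called in either direction, and without wild-type replicate 2 there were 1 lower and 2 higher. Targets of the integrated stress response, which eIF2 phosphorylation sets off, were higher in 6 of 15 cases (40.0%, against 24.2% of all genes) and lower in 0. Their median difference was 0.20, and 6 of the 15 had a difference below 0. Fewer were higher without mutant replicate 1 or without mutant replicate 2. *Shmt2*, a mitochondrial serine enzyme, and *Sesn2*, an inhibitor of mTORC1, were higher by 0.93 and 0.95 and *Chac1*, a glutathione-degrading enzyme, by 0.83. *Atf4*, the transcription factor of this response, had a difference of -0.15 and did not pass. Nor did its targets *Ddit3* (-0.29), *Psat1* (-0.16), *Asns* (0.02) and *Slc7a11* (0.48), and in all 9 genes of the list did not pass. The remaining higher genes were *Slc3a2* (0.53), *Phgdh* (0.67) and *Trib3* (0.49).

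Of the partners of *Eif4a3* in the exon junction complex that were measured, *Rbm8a* fell by 0.87 (adjusted p = 0.0101 from limma, 0.0518 without mutant replicate 1 and 0.0582 without mutant replicate 2). *Casc3* was higher by 0.36 (adjusted p = 0.0274 from limma), and this call was lost when any 1 of the 4 arrays was left out and after median scaling (adjusted p from 0.0558 to 0.141).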

How the data were processed

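RNA of whole E15 cochleas was measured on 4 arrays, 2 of each genotype. The authors deposited RMA values, that is, 1 log2 signal for each probe set and array, already corrected for background and normalized between arrays. The array medians still lay higher in mutants. RMA and the build mm8 are named in the submitters' processing notes. Scanner files were not used here. Values were fitted with limma 3.58.1 in R 4.3.3 (lmFit, then eBayes, without covariates or a filter), and p-values were adjusted by Benjamini-Hochberg over the 35556 probe sets. The spread rests on 2 residual degrees of freedom and 2.91 from the prior, so the number of arrays limits precision, and p-values measure only the spread between these arrays, which may be technical. Platform annotation gave 1 symbol to 21789 probe sets and several to 1621. A current symbol was found by gene identifier for 21698 of the probe sets with 1 symbol. A gene is represented by its brightest probe set over all 4 arrays. No member probe set repeats the values of another member probe set.

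Array values are given for members, within each role, past an adjusted p of 0.05 without overlap and with a difference of at least 0.8, otherwise for the largest difference in each direction, and for genes whose probe sets differ in direction. Other members are given by their difference or by counts, and some array values beyond this rule were added after they were seen. Up to 3 genes with the smallest p are named per pathway list, and some others were added after they were seen. Members and lists were chosen with earlier results of these data known. The methods name significance analysis of microarrays (SAM), rewritten here with 6 relabelings as an alternative. The other alternatives were scaling to equal medians, a repeat of quantile normalization, removal of dim probe sets (below 6.69), probe sets with 1 symbol, trended or robust priors, array weights, the mean of a gene's probe sets, a threshold of 0.1 and leaving out each array, where the lone array is assumed to vary like the others. The fit was tested on simulated data. Sequences came from RefSeq.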

Additional observations from a re-analysis of the deposited data

How the results depend on the processing

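The count of 19 lower members held within 1.5 times under every alternative to the test and normalization, with 27 under SAM. The count of 4 higher members did so too except under SAM, which gave 9. SAM also raised the probe sets called to 27021 of 35556, against 13268 with limma. The larger member counts under SAM thus came with more calls over the whole array. Leaving out an array gave 7 to 16 lower and 1 to 3 higher members, a median difference from -0.25 to -0.15 (-0.16 with all arrays) and 4611 to 10895 probe sets. Median scaling gave a median difference of -0.25, and a repeat of quantile normalization gave -0.12. Fits without an array have fewer residual degrees of freedom, so a call can end even where its difference hardly moves. No paired analysis was possible because the genotypes share only replicate number 2. Outside the left-out arrays, calls ended for *Eif3k* after median scaling (adjusted p = 0.0602 from limma), for *Eif3h* and *Eif4e3* after repeated quantile normalization (0.191 and 0.0501) and for *Eef1akmt2* and *Eif4e3* with a trended prior (0.0541 and 0.0507). No member past the threshold changed direction under an alternative run. Members that did change it lay near 0. After median scaling they were *Eef1a2* (-0.0311), *Eef1d* (-0.0112), *Eef1e1* (-0.0519), *Eef2* (-0.0296), *Eif2b1* (-0.072) and *Eif4g3* (-0.0164). After repeated quantile normalization they were *Eif2d* (0.0428), *Eif3l* (0.062), *Eif4a3l1* (-0.0189), *Eif4g2* (0.13) and *Eif5a* (0.024). *Eif5a* also changed with the mean of its probe sets (0.18) and with the probe set of its own chromosome (0.44), which was added after the data were seen. Without an array, the differences ranged from -0.22 to 0.29 for *Eef1e1*, -0.25 to 0.27 for *Eif2b1*, -0.11 to 0.0409 for *Eif2d*, -0.0244 to 0.22 for *Eif4a3l1*, -0.11 to 0.0623 for *Eif4g2*, -0.0911 to 0.20 for *Eef1a2*, -0.0598 to 0.0146 for *Eif3l*, -0.0403 to 0.0065 for *Eef1a1*, -0.15 to 0.0904 for *Eef1akmt3* and -0.35 to 0.17 for *Eif5a*. The cause of these changes was not tested. With 2 arrays a genotype, differences as small as those of the eEF1A, eEF2 and eIF4G genes cannot be resolved. Counts of the pathway lists and their named genes were also run under these alternatives, a choice made after the data were seen.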
